A study of Mus musculus with 6 samples.

Results

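Oxidative phosphorylation (OXPHOS) subunits are the proteins that build the 4 complexes of the mitochondrial respiratory chain and ATP synthase, and their transcripts were followed in cultured mouse astrocytes with and without a mutant BRAF plasmid. Members were chosen by gene name (Nduf subunits, Sdha to Sdhd, Uqcr, Cox4 to Cox8, Atp5 and the mitochondrial Nd, Co, Atp and Cytb genes), with pseudogene names ending in -ps left out and a mean normalized count of at least 10 over the 6 cultures. The rule gave 94 genes of the 15280 that passed this minimum, out of 55357 rows in the table. Of these, 81 were nuclear genes and 13 were mitochondrially encoded, and they fell into complex I (44 genes), complex II (4), complex III (9), complex IV (18) and complex V (19). Ndufa4, whose name is that of a complex I gene, was counted with complex IV, where its protein is found. Without the minimum, 104 rows matched the names. Cox4i2 lay just inside it, at a mean of 12.3, and Cox6a2 just outside, at 8.19.

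RNA-seq was done on primary cortical astrocytes from late-embryonic C57BL/6 mice. KE stands for 3 cultures transfected with a plasmid in which a CMV promoter drives FLAG-tagged BRAF KE, the K499E variant of the kinase BRAF. NT stands for 3 nontransfected cultures, which the labels call naive, and both groups were collected at 48 hours. The RNA-seq samples hold no culture given an empty plasmid or wild-type BRAF, so transfection and BRAF KE cannot be told apart. The labels do not say that the cultures came from separate preparations, and p-values measure the spread between these cultures only.

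Complexes I and II pass electrons from NADH and from succinate to ubiquinone, complex III passes them to cytochrome c and complex IV to oxygen. Complexes I, III and IV move protons across the inner membrane, and complex V, ATP synthase, uses the gradient to make ATP. All complexes but complex II are built from products of both genomes. The mitochondrial genome supplies membrane-embedded core subunits, while the nuclear genome supplies the remaining core subunits, the accessory subunits and the assembly factors. Astrocytes are known for strong glycolysis alongside a functional respiratory chain.

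Deposited totals ranged from 30472429 to 30895529 normalized counts per culture, from about 24500000 to 34100000 reads by the step size of low values. Braf stood at 35025, 34933 and 40978 normalized counts in KE and at 925, 811 and 946 in NT. Marker counts here are calls by limma at an adjusted p under 0.05. Of all tested genes, 25.3% were called higher in KE and 26% lower. Of 13 tested astrocyte markers, 9 were higher and 2 lower in KE, and their summed level was 203758 to 210131 in KE against 148272 to 157361 in NT. All 19 tested microglia and macrophage markers were lower in KE, summing to 6688 to 9427 against 57536 to 68246, with Siglech at 0 in every culture. Of 9 tested oligodendrocyte lineage markers, 7 were lower and 1 higher in KE, with sums of 29787 to 34867 against 38171 to 38399. Of 9 tested neuronal markers, 3 were higher and 2 lower, with sums of 7080 to 7560 against 8996 to 9680 and Slc17a6 at 0. Of 9 tested vascular and mesenchymal markers, 3 were higher and 4 lower, with sums of 2947 to 3127 against 3293 to 4328. In bulk RNA, fewer cells of a type and less RNA per cell cannot be told apart. The part of these marker differences in the OXPHOS values below was not tested.

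OXPHOS transcripts differed little between KE and NT. By limma's adjusted p under 0.05, 11 members were upregulated, 13 were downregulated and 70 were not called. That was 25.5% of the members, against 51.3% of all tested genes, of which 25.3% were higher and 26% lower in KE. The balance of member calls depended on single cultures, with 19 upregulated and 8 downregulated without KE replicate 3. OXPHOS transcripts are abundant, with 86 of the 94 at a mean of at least 1000, and among all tested genes at that level 58.1% were called. Values of KE and NT did not overlap for 32 members (34.0%), against 59.9% of tested genes. The log2 fold change (log2FC, KE against NT, on normalized counts plus 1) ran from -0.79 for mt-Nd6 to 0.34 for Ndufs3. Its median size was 0.12, against 0.30 over all tested genes and 0.22 over those at a mean of at least 1000. The 95% interval stayed between -1 and 1 for all 94 members and between -0.5 and 0.5 for 86 of them. Over the 6432 tested genes at a mean of at least 1000, it did so for 5948 and 4341.

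**Figure D1:**
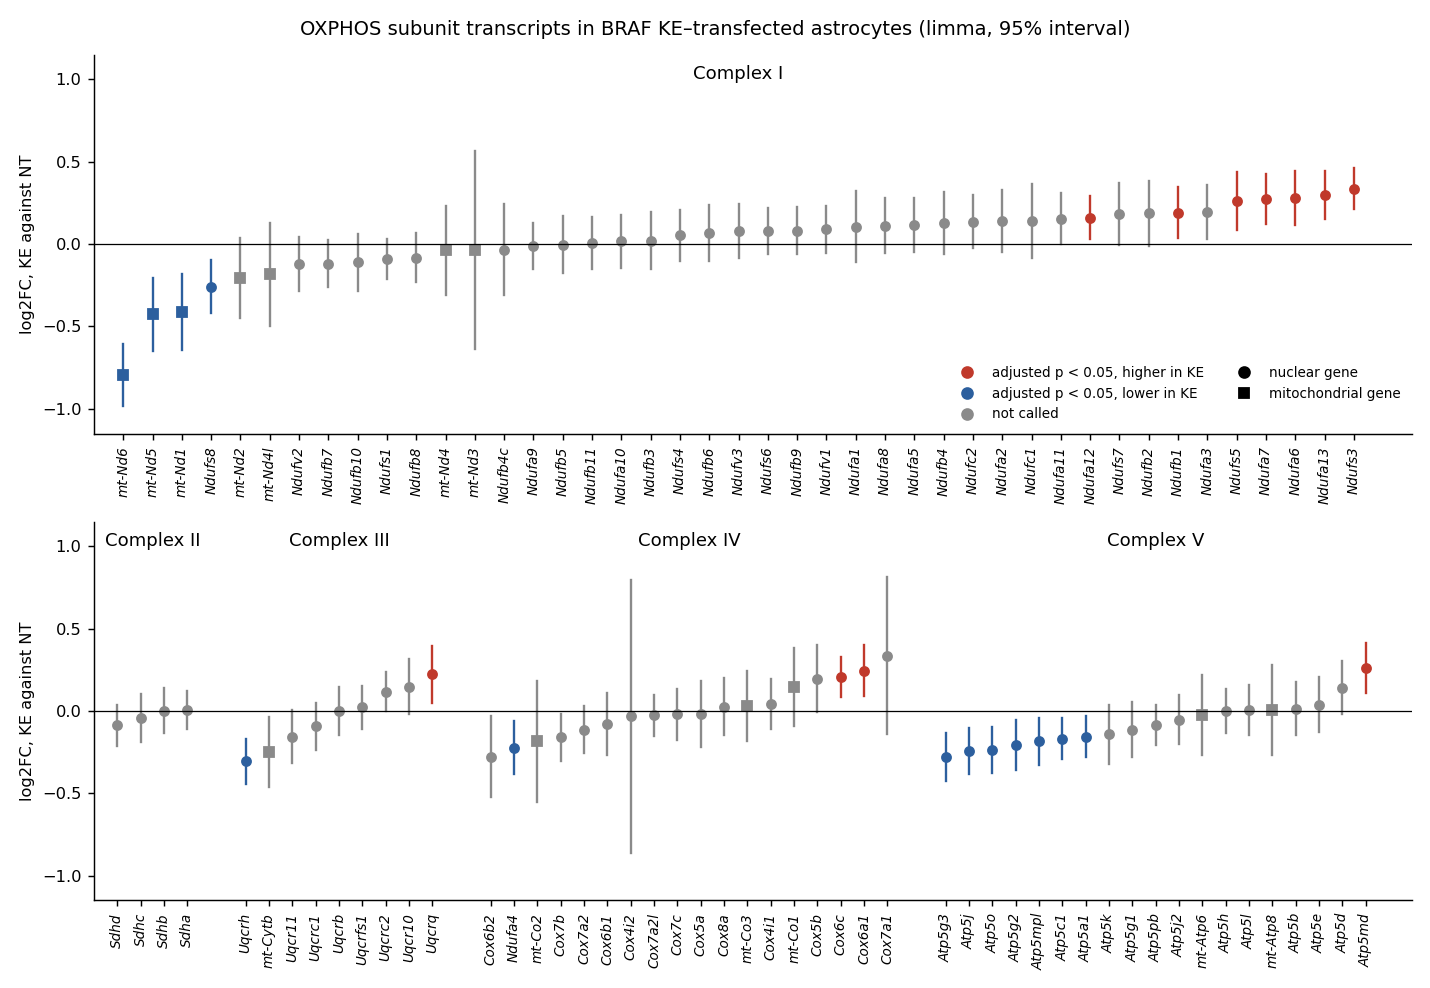
Log2FC of the OXPHOS members that are reported by name (vertical axis, KE against NT), ordered by value within each complex, with bars for the 95% interval from limma, red and blue for members called higher or lower in KE, and squares for mitochondrial genes. Of the 11 rises 7 are nuclear genes of complex I, and of the 13 falls 7 are nuclear genes of complex V and 3 are mitochondrial genes of complex I.

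Of the 37 nuclear subunits of complex I, 28 had a positive log2FC (75.7%, against 50.1% of all tested genes), and the median was 0.09 against 0.00. By the test, 7 were upregulated (18.9%, against 25.3% of all tested genes) and 1 was downregulated (2.7%, against 26%). The called rises took in both arms of the L-shaped complex. In the matrix arm, which oxidises NADH and reduces ubiquinone, they were Ndufs3, Ndufa6, Ndufa7 and Ndufa12. In the membrane arm, which pumps protons, they were Ndufa13, Ndufs5 and Ndufb1. The 28 positive values ranged from 25 to 31 under every alternative setting tried, but the count of rises was 4 without KE replicate 1 and without limma's variance trend, and 12 without KE replicate 3. With the 13 mitochondrial mRNAs scaled to equal totals, a setting described below that widens the spread of nuclear genes, it was 1.

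Ndufs3, a core subunit of the ubiquinone-binding module, showed the largest rise among nuclear members that were called. It lies on the minus strand at chr2:90724969-90735284 (GRCm39). It had 2701, 2710 and 2571 normalized counts in KE and 2097, 2153 and 2067 in NT. All 3 KE cultures lay above all 3 NT cultures, and KE replicate 3 was the lowest of its group. The log2FC was 0.34 ± 0.06 (SE, n = 3 per group, limma adjusted p = 0.000473), and the rise was called under each of the 18 settings run. The RefSeq promoter window (GRCm38.p6, minus strand, chr2:90904672-90904971, from 250 bases before to 50 after the start) is shown because it belongs to this largest nuclear rise. Capitals mark the letters CCGGAAG, the core bound by ETS factors such as GABP, or their reverse CTTCCGG, found at offsets -27 and 1 from the start.
Ndufs3 promoter: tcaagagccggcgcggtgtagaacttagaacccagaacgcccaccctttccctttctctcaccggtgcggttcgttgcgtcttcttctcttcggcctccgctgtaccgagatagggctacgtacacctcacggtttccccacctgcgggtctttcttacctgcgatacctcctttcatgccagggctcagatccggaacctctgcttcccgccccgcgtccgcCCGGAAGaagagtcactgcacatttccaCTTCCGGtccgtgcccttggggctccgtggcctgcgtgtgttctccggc

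Ndufa13, also known as GRIM-19, is an accessory subunit of the membrane arm. It stood at 3432, 3575 and 3129 normalized counts in KE and at 2654, 2910 and 2682 in NT. KE and NT values were apart, and the log2FC was 0.30 ± 0.07 (SE, limma adjusted p = 0.00345). The accessory subunits Ndufa6 (log2FC 0.28), Ndufa7 (0.27) and Ndufs5 (0.26) followed, and their groups did not overlap either. Ndufb1 (0.19) and Ndufa12 (0.16) lay nearest to the threshold, at limma adjusted p-values of 0.0395 and 0.0433, and were called under 10 and 7 of the 18 settings run. Ndufs5 was called under 14.

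Ndufs8, an iron-sulfur subunit of the ubiquinone module, moved the other way. It had 1924, 1957 and 1661 normalized counts in KE and 2237, 2251 and 2129 in NT. Every KE culture lay below every NT culture, with a log2FC of -0.26 ± 0.07 (SE, limma adjusted p = 0.0119). Of the 7 nuclear core subunits, only Ndufs3 and Ndufs8 were called. Ndufs7, which carries the last iron-sulfur cluster, had a log2FC of 0.18, and Ndufv1, the FMN-binding entry point for electrons from NADH, had 0.09. Ndufv2 and Ndufs1, iron-sulfur subunits of the NADH module, had -0.12 and -0.09. Ndufs1 was not called although its groups did not overlap, at 4311, 3937 and 4110 normalized counts in KE and 4336, 4325 and 4485 in NT. Ndufb2 shares 447 exonic bases on the opposite strand with Braf, and its log2FC of 0.19 was not called.

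Of the 7 complex I subunits encoded in the mitochondria, 3 were downregulated, mt-Nd6, mt-Nd5 and mt-Nd1 (42.9%, against 26% of all tested genes). All 7 had a negative log2FC, where 50.1% of all tested genes were above 0. The remaining ones were mt-Nd2 (-0.21), mt-Nd4l (-0.18), mt-Nd4 (-0.04) and mt-Nd3 (-0.04), the last with an interval of -0.64 to 0.57. Between 5 and 7 of the 7 stayed negative under every alternative. There were 2 above 0 without KE replicate 2, 2 without NT replicate 1 and 1 without NT replicate 3, and 2 (mt-Nd3 and mt-Nd4, at 0.02 each) when the 13 mitochondrial mRNAs were scaled to equal totals. The 3 calls held under 17 of the 18 settings run, the exception being that scaling.

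mt-Nd6 showed the largest change of all 94 members. It encodes a membrane subunit of complex I and is the only mRNA whose gene is read from the opposite strand to the other 12, at chrM:13552-14070 (GRCm39). It had 618, 526 and 580 normalized counts in KE and 959, 965 and 1065 in NT. Every KE culture lay well below every NT culture, and the log2FC was -0.79 ± 0.09 (SE, limma adjusted p = 1.97e-05). The fall was called under each of the 18 settings run. Because the library kit selects polyadenylated RNA, this row need not follow all mt-Nd6 RNA.

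mt-Nd5, the distal proton-pumping subunit, lies next to mt-Nd6 at chrM:11742-13565. It had 64462, 59374 and 69500 normalized counts in KE and 97174, 74024 and 89537 in NT. The groups did not overlap and NT replicate 2 lay nearest to the KE values, with a log2FC of -0.43 ± 0.10 (SE, limma adjusted p = 0.00462).

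mt-Nd1, a membrane subunit at the ubiquinone site, lies at chrM:2751-3707. It had 86217, 76552 and 88859 normalized counts in KE and 126500, 94784 and 115387 in NT. The groups did not overlap, and the log2FC was -0.41 ± 0.11 (SE, limma adjusted p = 0.00698).

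Among the 13 mitochondrial genes, neighbours share bases in 3 pairs shown here, besides 1 base between mt-Atp6 and mt-Co3, so a read there cannot be given to a single gene by position. The stretches are shown on the plus strand of GRCm39 with the shared bases in capitals. mt-Atp8 and mt-Atp6 share 43 bases within chrM:7907-7989 and mt-Nd4l and mt-Nd4 share 7 bases within chrM:10147-10193, each pair on the same strand. The mRNAs are counted by gene here, and the genes of such a pair need not have separate transcripts. mt-Nd5 and mt-Nd6 meet end to end on opposite strands and share 14 bases within chrM:13532-13585.
mt-Atp8 and mt-Atp6: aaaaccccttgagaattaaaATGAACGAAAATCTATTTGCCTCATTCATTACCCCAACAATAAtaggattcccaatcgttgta
mt-Nd4l and mt-Nd4: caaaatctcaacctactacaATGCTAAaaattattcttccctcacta
mt-Nd5 and mt-Nd6: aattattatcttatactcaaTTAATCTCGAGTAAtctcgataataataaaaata
The library kit keeps strand, but whether the counting used it is not given in the sources used here. Among the 94 members, 48 share exonic bases with a gene on the opposite strand, among them Ndufs3 (507 bases with Kbtbd4), Ndufa13 (1039 with Tssk6) and Ndufa6 (348 with Smdt1). Without strand, reads from the plus-strand transcript across the mt-Nd6 gene would be counted for mt-Nd6.

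The mitochondrial mRNAs moved unevenly against each other. As a share of the 13, mt-Co1, the catalytic subunit of complex IV, made up 44.0%, 43.4% and 43.2% in KE and 36.2%, 38.8% and 38.7% in NT, with every KE culture above every NT culture. mt-Nd1 made up 7.43% ± 0.11 (SD, n = 3) in KE and 9.53% ± 0.29 in NT. mt-Nd5 made up 5.71% ± 0.20 and 7.38% ± 0.19, and mt-Cytb 10.8% ± 0.23 and 12.3% ± 0.29. The shares of mt-Nd1, mt-Nd2, mt-Nd5, mt-Nd6 and mt-Cytb were lower in every KE culture than in any NT culture, and those of the other 7 overlapped. A share removes the swing in total mitochondrial mRNA between cultures, and a higher share of one mRNA lowers the others.

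With the 13 mRNAs scaled to equal totals and refitted, mt-Nd6 was the only member of the 13 called, at -0.74 (limma adjusted p = 0.000326). mt-Nd5 and mt-Nd1 kept values of -0.37 and -0.36 but missed the threshold (adjusted p = 0.0618 and 0.076), and mt-Co1 had 0.20 (0.407). This scaling was chosen after seeing the data. It carries the swing of the mitochondrial totals into every nuclear gene, and the SE of mt-Nd5 rose from 0.10 to 0.15.

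**Figure D2:**
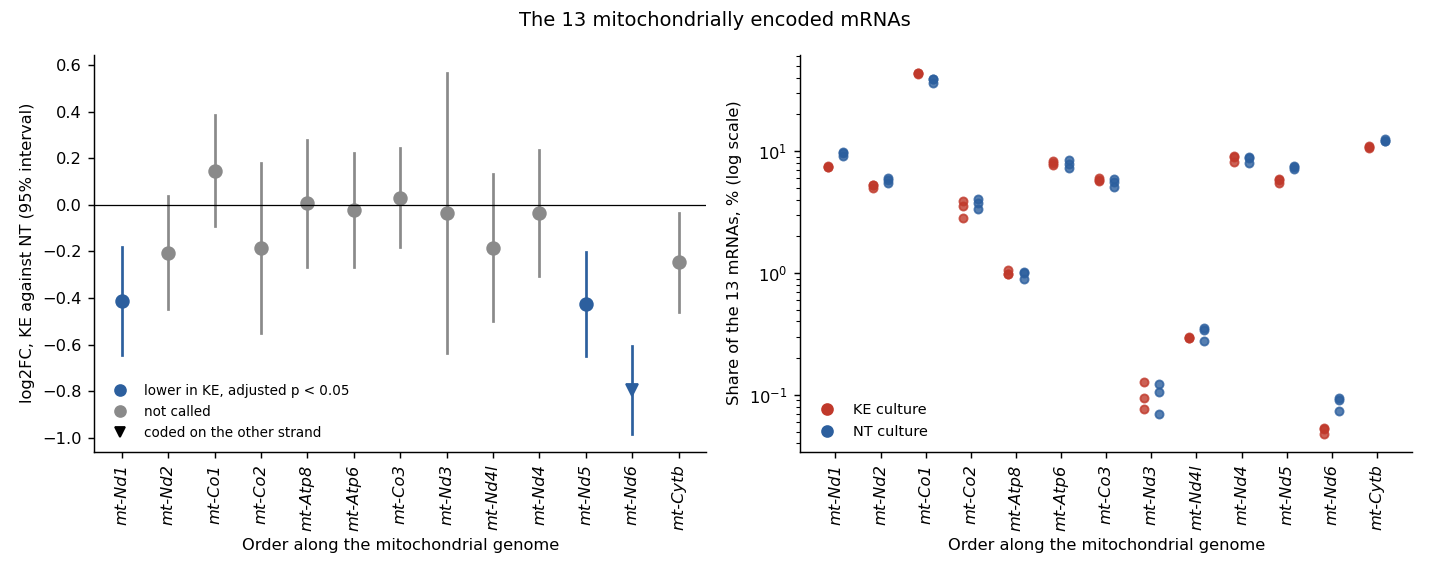
Left, log2FC of the 13 mitochondrial mRNAs with 95% intervals in gene order, and right, the share of each mRNA within the 13 in each culture, in percent on a log axis. The red KE points of mt-Nd1, mt-Nd5 and mt-Nd6 sit apart below the blue NT points, and those of mt-Co1 sit above.

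Complex II, which oxidises succinate and holds no mitochondrially encoded subunit, was the most even. None of its 4 genes was called by limma, and the log2FC ran from -0.09 to 0.01. Sdha, the flavoprotein, had 11075, 10876 and 10489 normalized counts in KE and 10535, 10879 and 10867 in NT, so the groups overlapped. Its log2FC was 0.01 with an interval of -0.11 to 0.12. Sdhb, the iron-sulfur subunit, had 0.00, and the membrane anchors Sdhc and Sdhd had -0.05 and -0.09. Unadjusted, none of the 4 reached a p under 0.05 either.

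In complex III, 1 of 9 genes was upregulated and 1 was downregulated (11.1% each, against 25.3% and 26% of all tested genes). Uqcrh, the hinge protein that sits by cytochrome c1, showed the largest fall of any called nuclear member. It had 3741, 3584 and 3238 normalized counts in KE and 4377, 4290 and 4364 in NT. All KE values lay below all NT values, with a log2FC of -0.31 ± 0.06 (SE, limma adjusted p = 0.00194). Its promoter window (GRCm38.p6, minus strand, chr4:116075021-116075320, RefSeq) is printed for comparison with that of Ndufs3, with the reversed ETS core in capitals at offset -10. The windows of Ndufa13 and Atp5g3, the next largest called nuclear rise and fall, held none of the 3 motifs searched and are not printed.
Uqcrh promoter: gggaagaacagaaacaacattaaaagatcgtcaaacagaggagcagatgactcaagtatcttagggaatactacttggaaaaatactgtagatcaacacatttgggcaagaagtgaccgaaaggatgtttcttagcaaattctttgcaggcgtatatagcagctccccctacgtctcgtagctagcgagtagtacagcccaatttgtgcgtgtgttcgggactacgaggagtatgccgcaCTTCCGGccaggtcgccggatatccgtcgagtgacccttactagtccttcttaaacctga

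Uqcrq, a small accessory subunit of complex III, had 4121, 4193 and 3489 normalized counts in KE and 3211, 3617 and 3267 in NT. The groups overlapped, because KE replicate 3 lay below NT replicate 2, although the rise passed the test with a log2FC of 0.22 ± 0.08 (SE, limma adjusted p = 0.0354). This call was lost without any one of KE replicates 1 and 2 and NT replicates 1 and 3, with values of 0.17 to 0.20 and adjusted p of 0.0918 to 0.123. mt-Cytb, cytochrome b, had 129665, 108598 and 127137 normalized counts in KE and 159184, 130494 and 144207 in NT. The groups did not overlap, but the log2FC of -0.25 ± 0.10 (SE) missed the threshold at a limma adjusted p of 0.0513. It passed under 5 of the 18 settings run. Uqcrfs1, the Rieske iron-sulfur protein, had a log2FC of 0.02.

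In complex IV, 2 of 18 genes were upregulated (11.1%, against 25.3% of all tested genes) and 1 was downregulated (5.56%, against 26%). Cox6c, a small nuclear subunit, had 5388, 5361 and 4940 normalized counts in KE and 4516, 4602 and 4473 in NT. Its groups did not overlap, and the log2FC was 0.21 ± 0.06 (SE, limma adjusted p = 0.00959). Cox6a1, the broadly expressed form of subunit 6a, had 4448, 4849 and 4037 normalized counts in KE and 3682, 3900 and 3644 in NT. Its groups did not overlap, and the log2FC was 0.25 ± 0.07 (SE, limma adjusted p = 0.0135).

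Ndufa4 fell from 4583, 4420 and 4551 normalized counts in NT to 4176, 4027 and 3453 in KE. The groups did not overlap, and the log2FC was -0.22 ± 0.07 (SE, limma adjusted p = 0.0236). KE replicate 3 was the lowest, and without it the value was -0.14 and the call was lost (adjusted p = 0.0707), as it was without NT replicate 1 (0.0679) or NT replicate 3 (0.0567). The nuclear subunits Cox4i1, Cox5a and Cox5b had log2FC values of 0.04, -0.02 and 0.20, none called. The mitochondrial core subunits mt-Co1 (0.15), mt-Co2 (-0.18) and mt-Co3 (0.03) had overlapping groups.

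Isoforms named for other tissues were not called. Cox4i2, the lung and hypoxia form of subunit 4, had 8.09 to 16.3 normalized counts over the 6 cultures, with a log2FC interval of -0.86 to 0.80. Cox7a1, the heart and muscle form of subunit 7a, had 51.6, 43.0 and 51.3 in KE and 33.1, 39.3 and 42.8 in NT. The groups just failed to overlap, and the log2FC of 0.34 was not called, with an interval of -0.14 to 0.81. Cox6b2, the testis form of subunit 6b, had 570, 738 and 559 in KE and 702, 809 and 736 in NT. The groups overlapped, and its log2FC of -0.28 was not called (limma adjusted p = 0.0595), though it passed under 3 of the 18 settings run: without KE replicate 2, at -0.41 (0.00517), with equal totals over nuclear genes, at -0.29 (0.0495), and with a replicate block, at -0.28 (0.0207). Cox7a2l, a supercomplex factor related to subunit 7a, had -0.03. Below the minimum were Cox6a2, Cox8b and Ndufa4l2, with means of 8.19, 1.14 and 1.74.

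Complex V held most of the nuclear falls. Of its 17 nuclear genes, 12 had a negative log2FC, and the median was -0.11. By the test, 7 were downregulated (41.2%, against 26% of all tested genes) and 1 was upregulated (5.88%, against 25.3%). The falls took in the F1 head, where ATP is made, with 2 of 5 genes (Atp5a1 and Atp5c1). They also took in the membrane F0 part and stalk, with 5 of 12 (Atp5g3, Atp5g2, Atp5j, Atp5o and Atp5mpl). The other 3 F1 genes had positive log2FC values and were not called: Atp5d (0.14), Atp5e (0.04) and Atp5b (0.01). The count of 7 was 3 without KE replicate 3, without NT replicate 1 or without the variance trend, 4 without NT replicate 3 and 4 with equal totals over the nuclear members. Atp5g3, Atp5j and Atp5o were called in all of these. With equal totals over the 13 mitochondrial mRNAs the count was 0, and these genes lost their calls too.

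The same mature c subunit is encoded by 3 nuclear genes and forms the rotating ring. Atp5g3 had 6460, 6134 and 5499 normalized counts in KE and 7495, 7082 and 7324 in NT. Atp5g2 had 4923, 4997 and 4211 in KE and 5410, 5302 and 5544 in NT. In both genes every KE culture lay below every NT culture, with log2FC values of -0.28 ± 0.07 and -0.21 ± 0.07 (SE, limma adjusted p = 0.0045 and 0.0286). Atp5g1 had -0.11, its groups overlapped and it was not called, and differences among the 3 genes were not tested. The Atp5g2 call was lost without KE replicate 3, NT replicate 1 or NT replicate 3, with adjusted p from 0.0661 to 0.0884. Reads that match more than 1 of these related genes could be split by the quantification.

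Atp5o encodes OSCP, which joins the F1 head to the stalk. It had 5263, 5205 and 4575 normalized counts in KE and 5933, 5962 and 5774 in NT. No KE culture was as high as any NT culture, and the log2FC was -0.23 ± 0.06 (SE, limma adjusted p = 0.0097). Atp5j, coupling factor 6 of the stalk, had 3176, 2933 and 2879 in KE and 3741, 3550 and 3338 in NT. Its groups did not overlap, and the log2FC was -0.24 ± 0.06 (SE, limma adjusted p = 0.00879). The Atp5j row shares 1196 exonic bases with Gabpa on the opposite strand, and Gabpa was also lower in KE (-0.20).

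The catalytic head was uneven. Atp5a1, the alpha subunit, had 27830, 27224 and 25772 normalized counts in KE and 29306, 30312 and 30357 in NT. The groups did not overlap, and the log2FC was -0.16 ± 0.06 (SE, limma adjusted p = 0.04), a call lost without any single culture, with adjusted p from 0.0515 to 0.106. Atp5b, the beta subunit that pairs with alpha in the same ring, had 39774, 45396 and 37872 in KE and 39866, 41538 and 40045 in NT. Its groups overlapped, with a log2FC of 0.01 and an interval of -0.15 to 0.18. Atp5c1, the gamma shaft, had -0.17 ± 0.06 (SE, limma adjusted p = 0.0274), and its call was lost without KE replicate 2 or 3 or NT replicate 1 or 3, with adjusted p from 0.0586 to 0.0991.

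Atp5md, which encodes the small membrane subunit DAPIT, was the only complex V gene called higher. It had 2523, 2259 and 2286 normalized counts in KE and 2101, 1911 and 1880 in NT. No KE culture was as low as any NT culture, and the log2FC was 0.26 ± 0.07 (SE, limma adjusted p = 0.00833). Atp5md shares 2680 of the 2812 bases of its canonical transcript with exons of Taf5 on the opposite strand. The part of Taf5 reads in this row was not tested. Atp5mpl, the small proteolipid, went the other way, at -0.18 (limma adjusted p = 0.0326), called under 12 of the 18 settings run. The mitochondrial subunits mt-Atp6 (-0.02) and mt-Atp8 (0.01) were not called.

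Summed over all members of each genome, the groups were nearly level. The 81 nuclear genes came to 323677, 326392 and 291963 normalized counts in KE and 316299, 319332 and 314456 in NT, a KE to NT ratio of 0.992 with overlapping groups. The 13 mitochondrial mRNAs came to 1176020, 1014440 and 1200476 in KE and 1310707, 1031032 and 1185445 in NT, a ratio of 0.961, also overlapping. They made up 3.31% to 4.3% of each culture's total, and the nuclear members 0.952% to 1.07%. By complex, the mitochondrial ratios were 0.828 for complex I, 0.842 for III, 1.08 for IV and 0.978 for V. Groups overlapped for all of these but complex III. The nuclear ratios ran from 0.949 for complex V to 1.05 for complex I. The nuclear complex V sums did not overlap, at 132024, 135062 and 120644 in KE and 135510, 137602 and 135506 in NT. The nuclear sums of the other complexes overlapped.

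Single cultures leaned as a whole. KE replicate 3 was the lowest of its group in 72 of 81 nuclear members, by a median of -0.18 on the log2 scale against the other two, while KE replicate 2 was the lowest in all 13 mitochondrial mRNAs, by -0.23. In NT, replicate 1 was the highest in 12 of the 13 mitochondrial mRNAs and replicate 2 the lowest in 11. The nuclear sums of the NT cultures lay closer together, with an SD of 2462 against 19142 in KE. Without KE replicate 3, 19 members were upregulated and 8 downregulated in place of 11 and 13. Without KE replicate 2, the median log2FC of the mitochondrial mRNAs was 0.02 in place of -0.18, while mt-Nd1, mt-Nd5 and mt-Nd6 were still called lower.

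**Figure D3:**
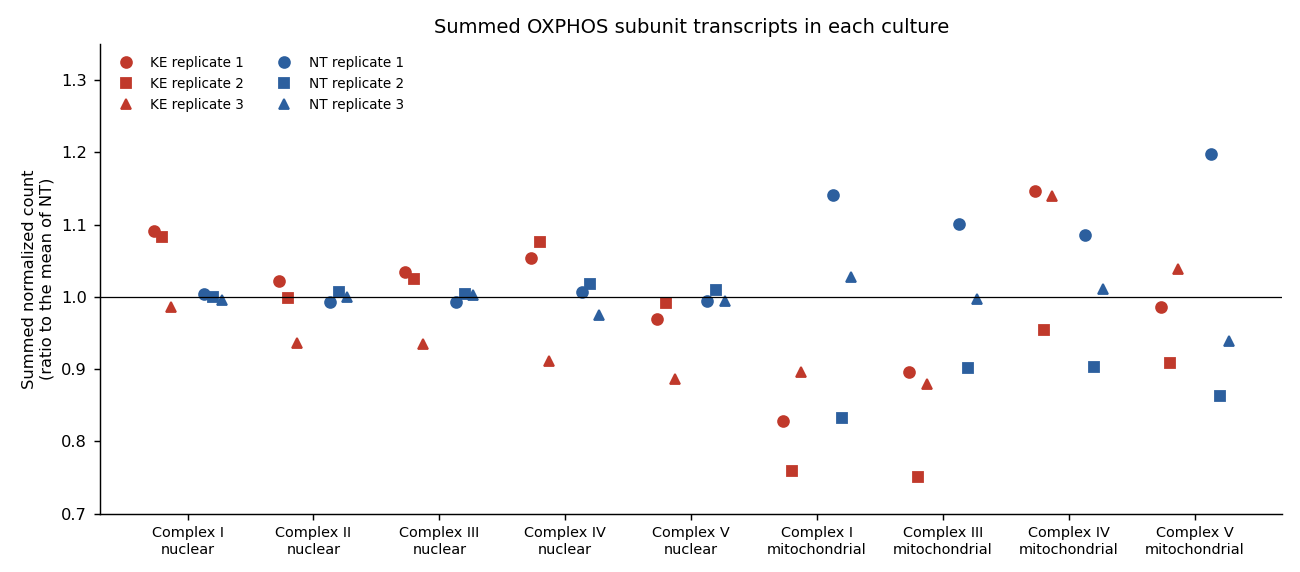
Summed normalized count of the members of each complex and genome in each culture, as a ratio to the NT mean (vertical axis), with red for KE, blue for NT and a marker shape for each replicate number. KE replicate 3 is the lowest KE culture in each of the 5 nuclear sums, and KE replicate 2 in each of the 4 mitochondrial ones.

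Levels were compared between genes per kilobase of the Ensembl canonical transcript (GENCODE vM39). In NT, the median normalized count per kb of complex I was 47650 over the 7 mitochondrial subunits and 1834 over the 36 nuclear ones (the copy Ndufb4c set aside). For complex IV it was 82170 over the 3 mitochondrial and 7169 over the 11 nuclear subunits, with the 4 isoforms set aside. The lowest mitochondrial mRNA per kb was mt-Nd6, at 1919 in NT and 1107 in KE, and the highest was mt-Co1, at 287600 in NT and 318500 in KE. Among nuclear members Atp5b was the highest, at 21020 per kb in NT. Deposited counts were not corrected for length, and a canonical transcript longer than the one used in astrocytes lowers a gene's value per kb.

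**Figure D4:**
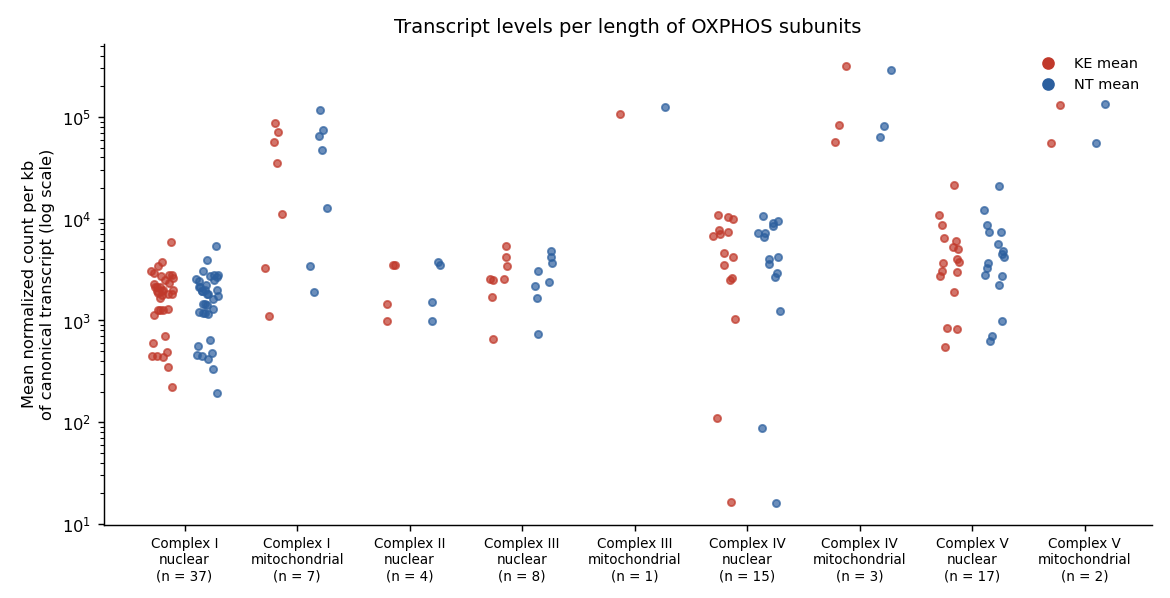
Mean normalized count per kilobase of canonical transcript (log axis) for each of the 94 members by complex and genome, red for the KE mean and blue for the NT mean. Mitochondrial mRNAs sit above the nuclear subunits of the same complex apart from mt-Nd6 and mt-Nd3, which fall within the nuclear range of complex I.

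Promoter windows of 300 bases were found in RefSeq (GRCm38.p6) for 67 of the 81 nuclear members and searched on both strands for 3 short motifs. CGCATGCG, the core read by NRF1, was in 11.9% of them, against 3.71% of the windows of 11414 tested genes and 1.91% of all 27025. CCGGAAG, the ETS core, was in 23.9%, against 17.2% and 9.12%. AAGATGGC, the YY1 core, was in 13.4%, against 4.44% and 2.88%. The last letters of the ETS core, AAG, are the first of the YY1 core, so those motifs can share bases. Any of the 3 was in 3 of 9 windows of upregulated, 3 of 8 of downregulated and 23 of 50 of uncalled members. A match describes letters only.

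Counts of the related lists that follow stand against 25.3% of all tested genes called higher and 26% called lower. Of 14 nuclear regulators known to act on respiratory genes, 4 were upregulated and 7 downregulated. Nrf1, which activates many respiratory genes, had 811, 799 and 930 normalized counts in KE and 1089, 1136 and 1128 in NT. Its groups did not overlap, and the log2FC was -0.40 ± 0.08 (SE, limma adjusted p = 0.00124). The coactivators Ppargc1b and Pprc1 had -1.18 and -0.70, and the GABP subunit gene Gabpb2 had -0.65. Esrrg, an orphan receptor that drives oxidative genes, had 0.85. Ppargc1a, the best-known coactivator of mitochondrial biogenesis, had 0.12 and was not called.

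Of 31 genes for mitochondrial transcription and RNA handling, 5 were upregulated and 4 downregulated. Pnpt1, a mitochondrial RNA exonuclease, had 3725, 3498 and 3896 normalized counts in KE and 1969, 1702 and 1616 in NT. Its groups lay far apart, and the log2FC was 1.08 ± 0.08 (SE, limma adjusted p = 9.66e-07). Polg, the catalytic subunit of the mitochondrial DNA polymerase, had -0.48, Tbrg4, an RNA-binding FASTK-family protein, had -0.46 and Top1mt, the mitochondrial topoisomerase, had 0.40. Tfam (-0.01) and Polrmt (-0.11), the packaging factor and the RNA polymerase of the mitochondrial genome, were not called. Lrpprc and Slirp, which together stabilise mitochondrial mRNAs, had -0.08 (not called) and 0.27 (called).

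Assembly factors were called in both directions. For complex I, 3 of 17 were higher and 3 lower, among them Dmac1 and Ndufaf4 (-0.57 each), Ndufaf1 (0.41) and Dmac2 (0.36). For complex IV, 4 of 23 were higher and 3 lower. Cox18, which inserts the Co2 protein into the inner membrane, had 650, 674 and 669 normalized counts in KE and 318, 342 and 335 in NT. Its groups lay far apart, with a log2FC of 1.00 ± 0.08 (SE, limma adjusted p = 2.6e-06). Surf1 had 0.64, Cmc2 -0.67 and Coa7 -0.50. For complex II, 2 of 4 were higher (Sdhaf4 and Sdhaf2) and 1 lower (Sdhaf1), and for complex III 1 of 6 was higher (Ttc19, 0.41). None of the 4 for complex V was called by limma, and none had an unadjusted p under 0.05 apart from Atpaf2.

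Among 9 electron transport genes outside the name rule, Sqor, which oxidises sulfide, was higher (0.49), and Dhodh (-0.41) and Gpd2 (-0.22), which feed ubiquinone from pyrimidine synthesis and glycerol phosphate, were lower. Of 17 TCA cycle genes, 2 were higher and 3 lower, including Fh1, fumarase (-0.35), and Cs, citrate synthase (-0.18). Of 17 outer membrane and import genes, 3 were higher and 4 lower, including the matrix chaperones Hspa9 (0.35) and Hspd1 (-0.47). Of 12 genes for mitochondrial fusion, fission and mitophagy, 7 were higher and 1 lower, where 51.3% of all tested genes were called. Pink1, a kinase that marks damaged mitochondria, had 0.42, the fusion gene Mfn2 had 0.39 and Opa1 had -0.22.

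Of 7 tested genes on a list of carriers, uncoupling proteins and the ATP synthase inhibitor, 3 were lower, Slc25a5, Ucp2 and Atpif1. Atpif1, the inhibitor of ATP synthase, had a log2FC of -0.21 (limma adjusted p = 0.0411). Slc25a5, an ADP/ATP exchanger that passes substrate to complex V, had 12714, 12346 and 11350 normalized counts in KE and 18946, 18357 and 17849 in NT. Its groups lay far apart, with a log2FC of -0.60 ± 0.06 (SE, limma adjusted p = 1.04e-05). Slc25a4, its close relative, had -0.03 and was not called. Ucp2, a carrier of the uncoupling protein family that is abundant in immune cells, had 181, 227 and 181 in KE and 1914, 1996 and 1625 in NT, a log2FC of -3.23. The microglial list fell beside it, and its part in the Ucp2 and Slc25a5 values was not tested.

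**Figure D5:**
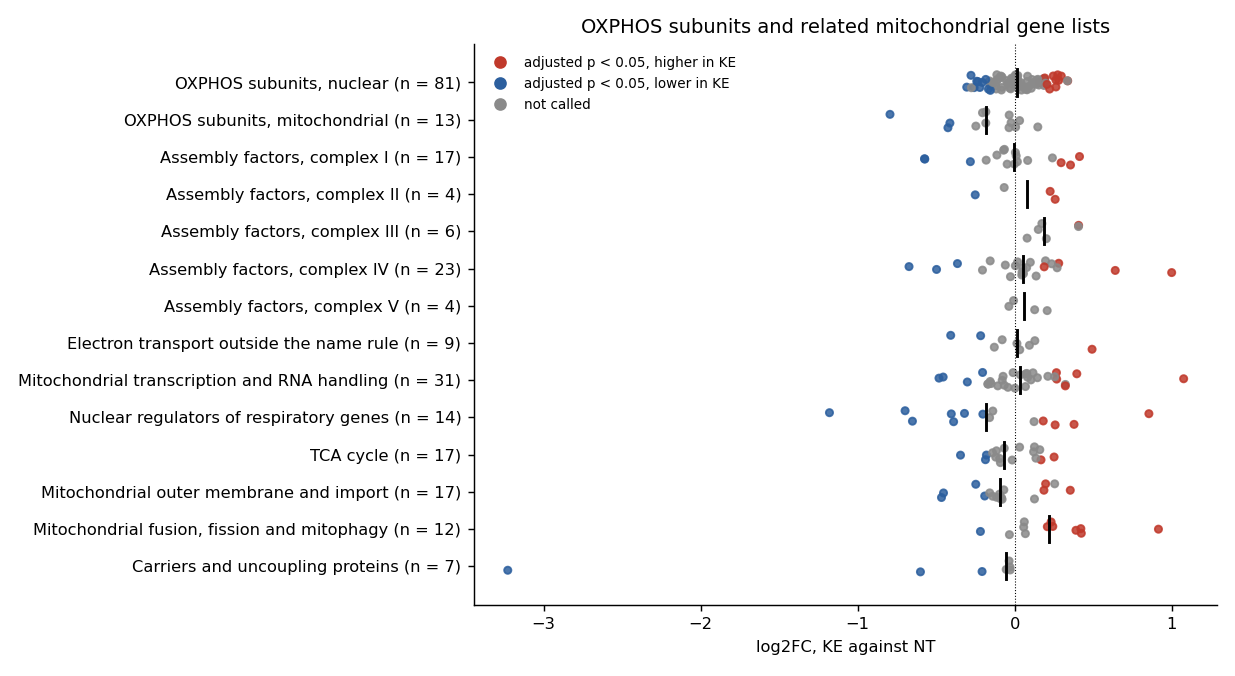
Log2FC (horizontal axis, KE against NT) of the OXPHOS members and of related mitochondrial lists, 1 point per tested gene, coloured by call, with a black bar at each list's median. The nuclear members lie between -0.31 and 0.34, and the regulators between -1.18 and 0.85.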

How the data were processed

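RNA-seq was made from 6 astrocyte cultures, 3 KE and 3 NT. The authors deposited Salmon gene counts divided by DESeq2 size factors (unit: signal, normalized counts per gene), so no value is a raw count. The study's methods give TrimGalore, STAR and the mouse build GRCm39 with GENCODE vM28, but that paragraph names the astrocytes only where it sets a fold-change cutoff, and the submitters' processing notes list the human build GRCh38. The gene identifiers are mouse. Batches adjusted by the authors are not named in the sources used here. Whole reads could not be recovered, since 74.9% to 77.7% of low values came out whole (tolerance 0.1 of a read), so no count model was used.

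Genes with a mean of at least 10 (15280) were compared by limma 3.58.1 (R 4.3.3) on log2(normalized count + 1), with a variance trend and Benjamini-Hochberg adjustment over all of them. An adjusted p under 0.05 was called. Fold changes on this scale understate changes of low genes. The smallest two-sided exact permutation p with 3 against 3 is 0.1, so none is given. The fitting code was tested on simulated data.

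Named genes were all mitochondrially encoded members, core nuclear subunits, tissue isoforms, and in each complex the 2 largest called rises and falls, with up to 4 called genes from each further list. Other genes named in the text were chosen after their values were seen. Members and lists were chosen with earlier results of these data known. No set test was run. Some genes are counted but not reported by name here. Gene positions came from GENCODE vM39 (GRCm39), where all 94 member identifiers were found, and promoter windows from RefSeq (GRCm38.p6). There were 15 alternatives for each result and 2 scalings added after seeing the data. Replicate numbers were not taken as pairs.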

Additional observations from a re-analysis of the deposited data

How the results depend on the processing

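No named member that was called, in the reported fit or an alternative, changed direction between them. Without the variance trend, 6 members were upregulated and 8 downregulated, in place of 11 and 13. Leaving out each culture in turn gave 7 (without KE replicate 1) to 19 (without KE replicate 3) upregulated members. It gave 8 (without KE replicate 3 or NT replicate 1) to 14 downregulated ones. The median log2FC of the 13 mitochondrial mRNAs ranged from -0.32 (without NT replicate 2) to 0.0216 (without KE replicate 2), against -0.18, and was -0.03 without NT replicate 1 and -0.14 without NT replicate 3. The causes were not tested. Quantile normalization gave 10 and 15, equal totals over nuclear genes 10 and 16, and equal totals over the nuclear members, added after seeing the data, 10 and 10. Equal totals over the 13 mitochondrial mRNAs, also added after seeing the data, gave 1 and 1 (Ndufs3 and mt-Nd6), with 4692 of all tested genes called in place of 7844. A replicate block (the number entered as a term in limma) gave 13 upregulated and 17 downregulated members, including all 24 called without it. The block was not used because same-numbered cultures correlated at only 0.06 to 0.07 across genes, though each correlated best with its own number. That correlation is over all tested genes. Among the 13 mitochondrial mRNAs, replicate 2 was the lowest of its group for all 13 in KE and for 11 in NT. With the block, mt-Nd2 and mt-Cytb were also called lower. Cox6a1 lost its call without the trend (limma adjusted p = 0.0569). With 3 cultures a group, members that were not called were not shown to be equal.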

Other observations

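The ribosomal RNAs of the mitochondrial genome, which are not OXPHOS subunits, were also in the table. mt-Rnr1 (12S) had 9660, 6420 and 7437 normalized counts in KE and 5853, 4586 and 5603 in NT. Every KE culture lay above every NT culture, with a log2FC of 0.54 ± 0.13 (SE, limma adjusted p = 0.00585). mt-Rnr2 (16S) had 17522, 11531 and 14361 in KE and 19812, 14410 and 18077 in NT. Its groups overlapped, and the log2FC of -0.28 was not called. The library kit selects polyadenylated RNA, so these values need not follow total rRNA.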
